A study of Rattus norvegicus with 12 samples.

Results

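The sciatic nerve injected with MBP84-104 was compared with the opposite sciatic nerve of the same wild-type rats, on 2 of the 12 arrays of the study. MBP84-104 is a peptide of myelin basic protein (MBP), which helps to hold the layers of the myelin sheath together. The injected array held RNA from left nerves that received 50 µg of the peptide in 5 µL of PBS through a 33-gauge needle. The contralateral array held RNA from right nerves, labelled as the PBS injection site control. Both arrays were labelled as pools of 3 female Sprague-Dawley rats, 8 weeks of age, taken at day 12. The paper describes an earlier day and heterozygous rnu+/- animals as controls for the nude rats, so the day and the strain given here are those of the labels. The labels name no engineered allele for these rats, and both nerves came from animals that had received the peptide on the left side. Probes entered the comparison if either array gave them a signal well above background. That left 19130 of the 30367 probes, and 10191 of the 15159 genes that could be named, each gene represented by its brightest probe. With 1 array per side there was no replicate, so sizes are described and nothing was tested.

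Peripheral nerve holds axons, the Schwann cells that wrap them in myelin, fibroblasts, blood vessels and resident macrophages, inside sheaths of connective tissue and fat. When myelin or axons are damaged, Schwann cells lower their myelin genes, and macrophages enter, take up myelin debris and export its cholesterol. Interferons, the cytokines of antiviral and T cell responses, induce a set of genes in many cell types through STAT and IRF factors that bind short promoter elements. MBP84-104 contains a stretch that T cells of rats and humans can recognise when it is presented on MHC class II.

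Signals are given in units of the array median (the median log2 signal over all probes was set to 0 on each array), and a log2 ratio is injected minus contralateral. A gene is said to have risen or fallen when the sides differed by at least 2-fold. Where a gene was well above background on 1 array only, the fold is a lower bound, set against the dimmest signal that was well above background on the other array. Such genes were left out if dimmer than that signal, so they could count only as higher on the side that showed them. Repeated spots of a probe gave the log2 ratio a standard error (SE) with a median of 0.07. Different probes of 1 gene differed by an SD of 0.14 (median of 1399 genes, root mean square 0.298). These errors are technical and hold nothing of the spread between rats. Among those 1399 genes, 141 had at least 1 probe past 2-fold. All probes passed 2-fold the same way in 43 of the 141, and all shared a sign in 123. A call from the brightest probe may therefore not hold for a gene's other probes. In whole nerve, fewer cells of a type and less RNA per cell cannot be told apart.

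Markers of the tissue were checked first. The summed signal of 17 neuron and axon genes was 84.1 in the injected and 163 in the contralateral nerve, against 2503 and 2181 in the DRG (dorsal root ganglia, which hold the cell bodies of sensory neurons) of wild-type rats. Of 26 genes of peripheral myelin matched to the array 24 were measured, with summed signals of 7445 and 11030 in the injected and contralateral nerve. Commonly used reference genes stayed close together, with a median log2 ratio of -0.06 and none of 14 past 2-fold. Among them the log2 ratio was -0.12 for Gapdh, 0.19 for Actb and -0.07 for Ppia. Raw signals had a median of 57.7 on the injected array and of 53.8 on its partner, and no spot was saturated.

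Of the 10191 genes, 478 rose (4.69%) and 417 fell (4.09%), and these shares are the background for every list that follows. After normexp background correction, whose offset of 50 draws ratios of dim genes toward 0, the counts were 201 and 107. A 4-fold difference was passed by 97 genes that rose and 36 that fell. Of all measured genes, 9499 were well above background on both sides, 475 on the injected side only and 217 on the contralateral side only. The log2 ratios of all genes had a median of -0.05 and an SD of 0.61. The plot of signals by side shows the bulk of genes along the line of equal signal, with interferon-induced and cell division genes above it and cholesterol synthesis and myelin genes below.

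**Figure D1:**
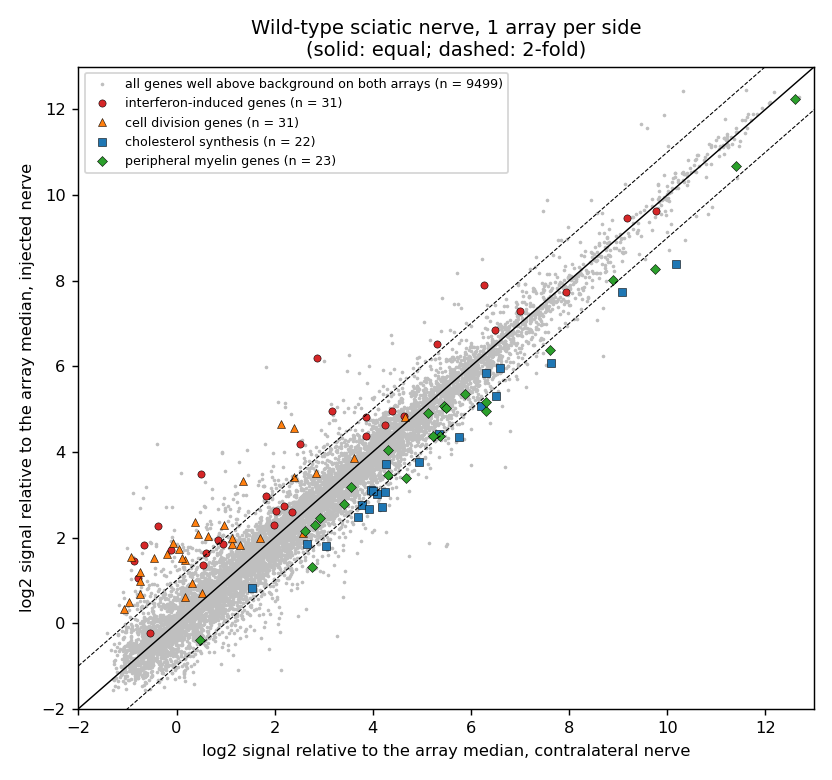
Log2 signal relative to the array median in the injected nerve (y axis) against the contralateral nerve (x axis), 1 point per gene for the 9499 genes well above background on both arrays. Coloured symbols mark members of 4 gene lists, the solid line is equal signal and the dashed lines a 2-fold difference; all 22 cholesterol synthesis genes and all 23 myelin genes lie below the solid line.

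The largest rises were of secreted inflammatory and lubricating proteins and of muscle proteins. Ptx3, a secreted pattern recognition protein that binds microbes and dying cells, had a signal of 18.1 in the injected and 0.758 in the contralateral nerve, a 23.9-fold difference (log2 ratio 4.58, SE 0.24). C1qtnf3, a secreted relative of complement C1q, stood at 9.06 and 0.647. Prg4, the lubricant of joint and tendon surfaces, had signals of 11.3 and 1.07. Msln, a surface protein of mesothelial cells, stood at 69.2 and 8.08. Upp1, an enzyme of uridine salvage, was 8.3-fold higher, with signals of 15.9 and 1.91. Hp, which encodes the haemoglobin-binding haptoglobin, rose 7.61-fold from 0.868 to 6.61. On the contralateral array these 6 genes lay between 0.647 and 8.08 times its median.

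Some genes crossed from background to a clear signal. Ccl20, the chemokine of the receptor Ccr6, had a signal of 8.25 in the injected nerve and was not well above background in the contralateral nerve, an increase of at least 22.3-fold. Its receptor Ccr6, carried by subsets of T cells, B cells and dendritic cells, was at least 3.38-fold higher by the same measure. Lilrb4, an inhibitory receptor of myeloid cells, was at least 13.8-fold higher and Tnn, a tenascin of the matrix, at least 13.6-fold. Lbp, the binding protein for bacterial lipopolysaccharide, was at least 11-fold higher, and Tyrp1, an enzyme of pigment cells, at least 10.8-fold. S100a8, the partner of S100a9 in a calcium-binding complex of neutrophils and monocytes, was at least 12.2-fold higher. All of these were listed on the injected side with signals between 4.01 and 8.25, except Ccr6 at 1.25.

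**Figure D2:**
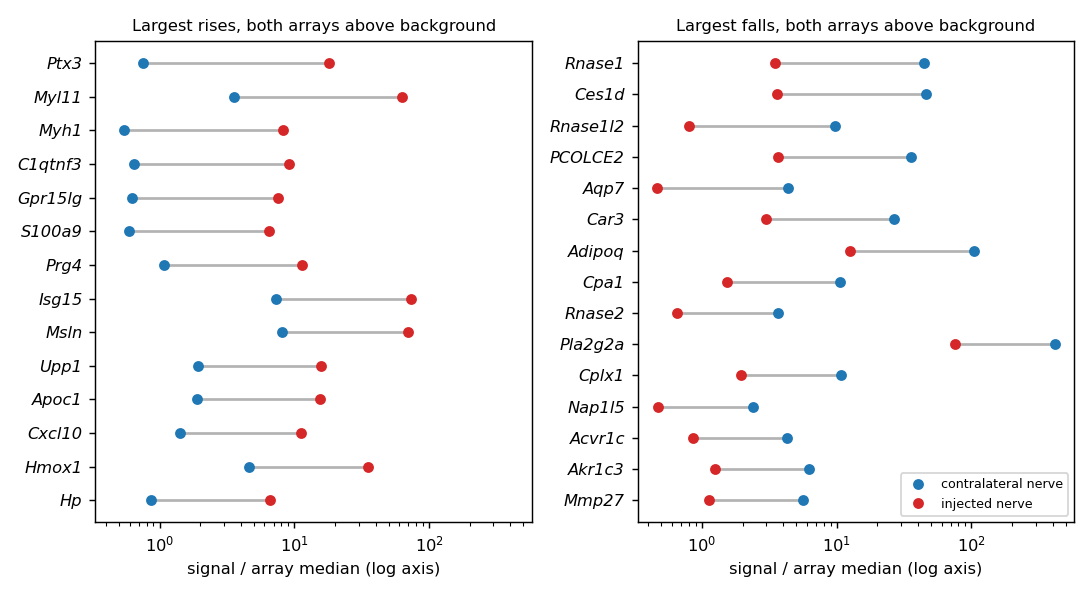
Signal divided by the array median (log axis) in the contralateral (blue) and injected (red) nerve for the largest rises and falls of genes seen well above background on both sides, without genes whose spots gave the log2 ratio an SE above 1. Each gene has 1 array per side; Ptx3 heads the rises at 23.9-fold and Rnase1 the falls at 12.8-fold.

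Interferon-induced genes were higher as a group. Of 36 measured, 34 were higher in the injected nerve, 17 rose and none fell, with a median log2 ratio of 0.93. Isg15, a ubiquitin-like protein that interferon attaches to other proteins, had signals of 73.2 in the injected and 7.25 in the contralateral nerve, a 10.1-fold difference (SE 0.02). Rsad2 (viperin), which blocks viral replication, stood at 4.8 and 0.766. Oas1a, a sensor of double-stranded RNA, stood at 3.55 and 0.63. Usp18, which removes Isg15 from proteins, was at 2.72 and 0.551, and Ifit3 was at least 5.2-fold higher. The transcription factor Irf7 rose from 5.74 to 18.2, the antiviral GTPase Mx1 from 8.99 to 31 and the membrane protein Ifitm1 from 77.1 to 241. The factors that carry the interferon signal lay lower, with log2 ratios of 0.56 for Stat2 and 0.90 for Irf9. Ifng, the gene of interferon gamma, was not well above background on either array.

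Promoter sequences were looked up for these 17 genes because they moved together. The RefSeq promoters of rat build GRCr8 cover 250 bases before to 50 bases after a gene's start, and 13 of the 17 genes had one. GAAANNGAA, the core of the interferon-stimulated response element, was found on either strand (reverse TTCNNTTTC) in 7 of the 13, and in 9.5% of all 27457 promoters. TTCNNNGAA, the gamma-activated site, was in 4 of the 13 and 8.68% of all, and TATAAA (reverse TTTATA), the TATA box, in 5 of the 13 and 14.3% of all. These matches describe letters and not sites in use. Cxcl10 held its match at the far end of the window, 243 bases before the start. The promoters of the next 3 genes by ratio that hold the core are shown, with that of Irf7, a factor that acts through this element. Capitals mark each match to the core.
Rsad2, chr6:48788071-48788370, minus strand: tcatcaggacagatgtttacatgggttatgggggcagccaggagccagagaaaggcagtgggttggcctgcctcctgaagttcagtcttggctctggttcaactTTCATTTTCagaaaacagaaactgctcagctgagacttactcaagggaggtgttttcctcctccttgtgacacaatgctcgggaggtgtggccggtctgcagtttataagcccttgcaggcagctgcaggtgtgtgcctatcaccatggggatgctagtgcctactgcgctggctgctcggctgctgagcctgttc
Oas1a, chr12:41330216-41330515, plus strand: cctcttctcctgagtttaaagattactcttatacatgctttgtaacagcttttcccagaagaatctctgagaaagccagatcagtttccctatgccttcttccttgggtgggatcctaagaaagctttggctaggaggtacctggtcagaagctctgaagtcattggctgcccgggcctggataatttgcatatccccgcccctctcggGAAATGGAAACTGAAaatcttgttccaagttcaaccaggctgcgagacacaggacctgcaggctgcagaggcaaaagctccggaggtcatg
Ifit3, chr1:241527076-241527375, plus strand: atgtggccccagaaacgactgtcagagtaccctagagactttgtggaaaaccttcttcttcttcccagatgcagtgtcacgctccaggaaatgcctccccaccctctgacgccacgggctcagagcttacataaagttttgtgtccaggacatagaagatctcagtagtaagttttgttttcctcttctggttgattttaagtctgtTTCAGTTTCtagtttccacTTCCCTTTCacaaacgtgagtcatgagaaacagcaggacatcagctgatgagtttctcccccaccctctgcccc
Irf7, chr1:205799974-205800273, minus strand: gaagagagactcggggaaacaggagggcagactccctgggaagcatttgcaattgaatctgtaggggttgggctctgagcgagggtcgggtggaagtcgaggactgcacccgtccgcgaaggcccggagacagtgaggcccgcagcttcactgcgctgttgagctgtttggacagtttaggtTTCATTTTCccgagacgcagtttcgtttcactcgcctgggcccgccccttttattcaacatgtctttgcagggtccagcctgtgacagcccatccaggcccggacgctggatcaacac

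Read from the start backwards, the match lay 146 bases before the start in Rsad2 and 68 in Irf7. Ifit3 and Oas1a held 2 matches each, and in Oas1a they overlapped. No match was found in the windows of Mx1, Irf8, Cxcl9, Ifi47, Trim25 or Parp9.

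Genes of phagocytes were higher together. Of 26 measured macrophage markers 25 were higher in the injected nerve, 14 rose and none fell (median log2 ratio 1.08). Gpnmb, a glycoprotein of lipid-laden macrophages, had signals of 77.1 and 11.4. Trem2, a receptor for lipids and apoptotic cells, stood at 176 and 50, and Clec7a, the receptor for fungal glucans, at 3.6 and 0.753. Genes used as general macrophage markers differed less. The log2 ratio was 1.27 for Cd68, 0.61 for Aif1 (Iba1), 0.49 for Adgre1 (F4/80) and 0.32 for Csf1r. Cx3cr1, the fractalkine receptor of resident macrophages, was the marker with a lower signal in the injected nerve, at 102 against 151. All 4 measured Fc receptors for IgG rose, Fcgr3a by 1.79, Fcgr2b by 1.42, Fcgr1a by 1.14 and Fcgr2a by 1.09 on the log2 scale. The 5 measured genes of the phagocyte oxidase were all higher, and Cybb and Cyba, its membrane subunits, rose 2.5-fold and 2.02-fold. Of 33 lysosomal genes 28 were higher, and Lgmn, Ctsd, Ctsb and Ctsz, which encode proteases, rose by 1.51, 1.28, 1.12 and 1.11 on the log2 scale.

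Genes that mark states of macrophages rose in part. Of 18 measured macrophage activation genes 13 were higher, 4 rose and none fell (median log2 ratio 0.51). Mmp12, the elastase of macrophages, was at least 8.15-fold higher. Arg1, which breaks down arginine, stood at 15.5 and 6.67, Ccl17 at 6.55 and 1.5, and Chi3l1 at 3.72 and 1.49 (SE of its log2 ratio 0.51). Nos2, the inducible nitric oxide synthase, had signals of 0.656 and 0.449, below the 2-fold threshold. Spp1 (osteopontin) differed little, at 170 and 147. Lyve1, a receptor of lymphatic vessels and perivascular macrophages, was lower at 12.9 and 22.3.

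**Figure D3:**
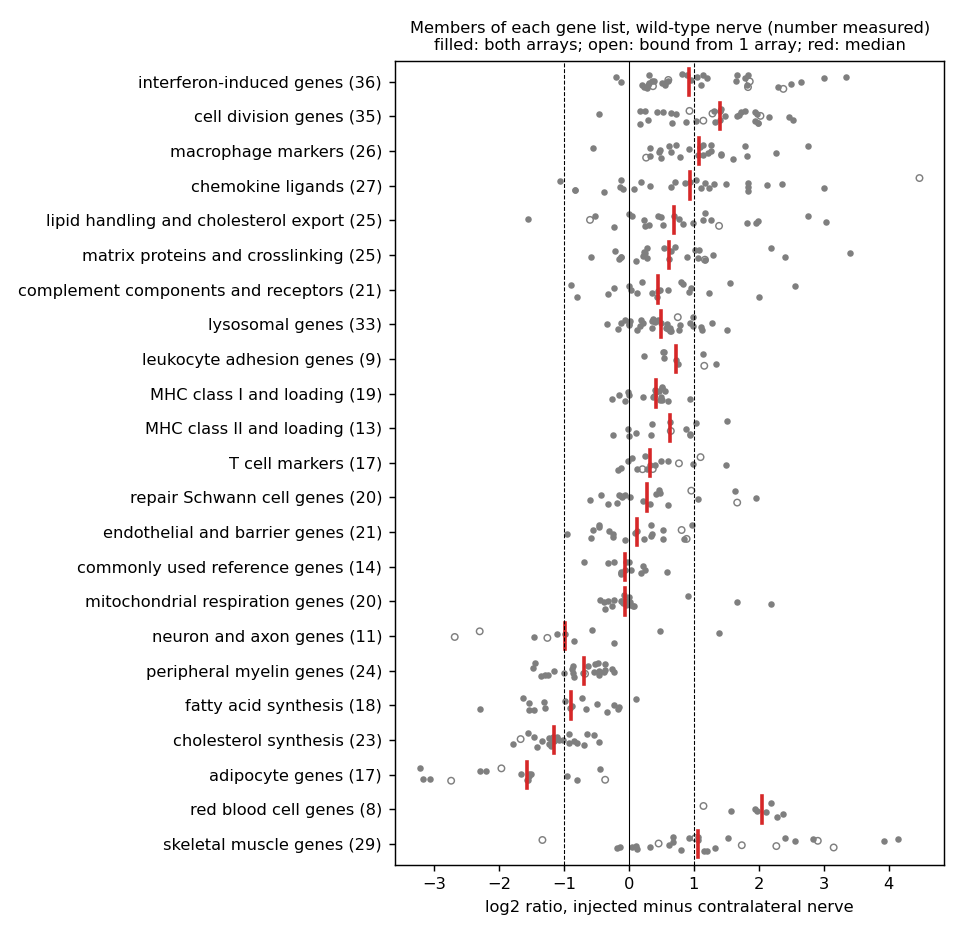
Log2 ratio (injected minus contralateral nerve, x axis) of every measured member of 23 gene lists, with the number measured in brackets. Filled points are genes well above background on both arrays, open points are bounds from 1 array, red bars are list medians, and dashed lines mark a 2-fold difference; the medians run from -1.57 for adipocyte genes to 2.04 for red blood cell genes.

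Many chemokines rose. Of 27 measured chemokine ligands 13 rose and 1 fell (median log2 ratio 0.94). Ccl17, which attracts T cells through Ccr4, Ccl3 and Ccl5, which attract monocytes and T cells, and Cxcl9, which attracts T cells through Cxcr3, rose by 2.12, 1.84, 1.83 and 1.84 on the log2 scale. Cxcl13, which attracts B cells, stood at 6.13 and 2.73, and Pf4 (Cxcl4) at 130 and 60.1. Ccl11 (eotaxin), which attracts eosinophils, fell, with signals of 25 and 52.6. The neutrophil attractant Cxcl1 had signals of 2.06 and 1.82. Among receptors, Cxcr4 rose from 1.63 to 4.99, and Ccr2, the receptor of Ccl2, had signals of 2.3 and 1.8.

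In the interleukin-1 family, the receptor antagonist Il1rn and the cytokine Il18 rose, and Il1b itself had signals of 7.13 and 4.24 (log2 ratio 0.75). Il1rl1, the receptor of interleukin-33, was at least 5.81-fold higher, while Il33 stood at 74.8 and 124. Il6 was seen in the injected nerve only, at least 2.24-fold higher. Of 15 genes of the interleukin-6 family 2 rose and none fell. Tnf had signals of 2.66 and 3.13, but both of its receptors rose, Tnfrsf1b from 5.69 to 12.5 and Tnfrsf1a from 24.3 to 49.1. Il17a, Il17f, Il2, Il4, Il12a and Il12b were not well above background on either array. Of the 21 measured cytokines and receptors outside these families the 2 Tnf receptors were the ones past 2-fold.

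Complement genes rose in part. Of 21 measured 17 were higher and 4 rose. Cfb, of the alternative pathway, rose from 55.8 to 163, and C2, of the classical pathway, from 16 to 37.5. The C1q chains, made by macrophages, stayed under 2-fold, with log2 ratios of 0.45 for C1qa, 0.04 for C1qb and 0.43 for C1qc. Among inhibitors, Serping1 stood at 771 and 407, and Cd55 at 1.25 and 2.33.

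Antigen presentation genes were higher by less than 2-fold for the most part. Of 19 genes of MHC class I presentation 14 were higher and none rose or fell (median log2 ratio 0.41). RT1-A1, a classical class I gene, had signals of 248 and 173, and B2m 511 and 439. Of 13 genes of MHC class II presentation 10 were higher and 2 rose, the protease Lgmn and Ciita, the coactivator of class II genes, which stood at 1.51 and 0.736. The class II chains themselves differed little, with log2 ratios of 0.11 for RT1-Da, -0.01 for RT1-Db1 and 0.34 for the invariant chain Cd74. RT1 genes are near-identical copies whose probes may bind several members, so their separate values are uncertain.

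Most lymphocyte genes were dim or not measured. Of 28 T cell markers on the array 17 were measured, 14 were higher, and Cd247, the zeta chain of the T cell receptor, and Cd8a rose (median log2 ratio 0.33). Members seen in the injected nerve only, such as Cd2 and Cd8a, could count only as higher. The ratio of Cd247 was poorly measured (log2 ratio 1.49, SE 0.91 between spots), and that of Cd8a is a bound. The summed signal of the 28 markers was 2343 in the injected and 2370 in the contralateral nerve, and nearly all of it came from the probe of Tbx21, at 2308 and 2343 (1 spot per array). Cd8b stood at 1.65 and 0.833, Cd3d at 7.64 and 6.09, Cd3g at 2.79 and 3.04, and Cd4 at 1.03 and 0.785. Cd3e and Lck were not well above background on either side. Among cytotoxic genes Nkg7, a granule protein, rose from 1.09 to 3.46, and Gzma stood at 2.06 and 2.44. Of 12 B and plasma cell markers on the array 4 were measured, and Blnk and Fcrla rose. Of 18 neutrophil genes 6 were measured, and S100a8 and S100a9 were the ones that rose. Elane, Ltf and Ngp, granule genes of young neutrophils, were not well above background on either array. Of 9 mast cell genes none passed 2-fold, with Cpa3 at 33.5 and 30.2 and Cma1 at 236 and 180. The leukocyte adhesion genes were higher in 9 of 9, and 3 rose, among them Itgb2 and Cd44.

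Genes of cell division were higher together. Of 35 measured 34 were higher and 23 rose, with a median log2 ratio of 1.39. Rrm2 and Rrm1, the subunits of ribonucleotide reductase, rose from 4.37 to 25.3 and from 0.529 to 2.93. Cdk1, the kinase that starts mitosis, stood at 23.5 and 5.27, Ccna2 at 5.16 and 1.3, and Ccnb1 at 2.89 and 0.731. Genes of DNA replication differed less. The log2 ratio was 1.03 for Mcm3, 0.66 for Mcm4, 0.24 for Mcm7 and 0.17 for Pcna. E2f1 was the exception, with signals of 4.34 and 5.98. The list median was 0.68 after normexp background correction.

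Matrix genes rose in part. Of 25 measured 20 were higher and 9 rose (median log2 ratio 0.61). Cthrc1, secreted by activated fibroblasts, stood at 59.1 and 11.1, and Tnc (tenascin C) at 6.67 and 1.47. Fn1 (fibronectin) rose from 218 to 492, Postn (periostin) from 33.7 to 70.3 and Eln (elastin) from 30.6 to 74.8. Of 12 measured collagen chains none rose and 1 fell, Col2a1 of cartilage, with signals of 2.43 and 4.92. The log2 ratio was 0.59 for Col3a1, 0.07 for Col1a2 and -0.12 for Col1a1. Of 20 metalloproteinases and inhibitors 3 rose. Mmp7 (matrilysin) was at least 7.33-fold higher, and Timp1, an inhibitor of metalloproteinases, rose from 177 to 793. Mmp2, the gelatinase A that nerve makes constitutively, stood at 387 and 205, and Mmp9 (gelatinase B) was not well above background on either array. Plaur, the receptor of urokinase, was at least 3.28-fold higher.

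Lipid genes split by function. Of 25 genes of lipid handling and cholesterol export 21 were higher, 9 rose and 1 fell. Of the apolipoproteins Apoe and Apoc1 rose, and Apod, Apoc4 and Apoc2 stood at log2 ratios of 0.83, 0.53 and 0.24. The probes of Apoc4 disagreed, as a dimmer one gave 3.79, so its change is uncertain. The phospholipid transfer protein Pltp rose from 6.02 to 14.4, the lipid droplet coat Plin2 from 29.7 to 67.2 and the lipoprotein receptor Scarb1 from 4.25 to 9.41. Lpl, the lipase that frees fatty acids from lipoproteins, fell. Genes of cholesterol synthesis were lower in 23 of 23, and 15 fell, with a median log2 ratio of -1.16. Hmgcs1, at the entry of the pathway, had signals of 333 in the injected and 1157 in the contralateral nerve. Sqle, which starts the sterol branch, stood at 20.2 and 54.2, and Idi1 at 67.4 and 199. The smallest differences were those of Ebp (-0.47), Srebf2 (-0.54) and Fdft1 (-0.65). Of 18 genes of fatty acid synthesis 17 were lower and 7 fell. Elovl6, which lengthens palmitate, stood at 15.5 and 48.1, Me1 at 19.9 and 57.9 and Scd2 at 421 and 1048.

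Genes of peripheral myelin were lower in 24 of 24, and 7 fell (median log2 ratio -0.70). Pmp2, a fatty acid carrier of myelin, stood at 310 and 867. Prx and Drp2, which form the outer scaffold of the myelinating Schwann cell, stood at 30.8 and 79.1 and at 2.48 and 6.79. Fa2h and Ugt8, enzymes of the myelin galactolipids, fell by 1.30 and 1.16 on the log2 scale. Mbp, the gene of the injected peptide's parent protein, had signals of 4825 and 6242 (log2 ratio -0.37). The myelin regulators Egr2 and Sox10 stood at log2 ratios of -0.63 and -0.27. Mag, at -0.23, was the least changed of the list.

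Genes of injured Schwann cells were mixed. Of 20 measured 12 were higher and 4 rose. Ngfr, the p75 neurotrophin receptor, rose from 1.98 to 6.11, Tnfrsf12a, the TWEAK receptor, from 1.94 to 7.57, and Nrg1 was at least 3.18-fold higher. Jun, which drives the repair state, had signals of 24.6 and 17.6, and Atf3 of 12.1 and 9.04. Gap43 stood at 8.52 and 11.4, and Shh and Gdnf, induced in Schwann cells after axotomy, were not well above background on either side. Among neurotrophic factors and receptors 3 of 12 fell, among them Ntrk2 at 0.625 and 1.7, and Cntf, made by myelinating Schwann cells, stood at 95.7 and 139. The fall of Ntrk2 is that of its brightest probe, and its other probes had log2 ratios of -0.47 and 0.21.

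Neuron and axon genes were lower for the most part. Of 11 measured 9 were lower, 5 fell and 1 rose. Stmn2, a growth cone protein, stood at 14.8 and 40.6 and Uchl1 at 43 and 93.3. Snap25, of synaptic vesicle fusion, and Nefh, the heavy neurofilament, were well above background in the contralateral nerve only, at least 6.44-fold and 4.93-fold lower in the injected nerve. Nefm and Nefl differed little, with log2 ratios of 0.48 and -0.23. P2rx3, an ATP receptor of sensory neurons, was the gene that rose, with signals of 2.8 and 1.08. Cplx1, which clamps vesicle fusion, was among the 15 largest falls at 5.45-fold.

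Many of the largest falls were of fat. Of 17 adipocyte genes all were lower and 13 fell (median log2 ratio -1.57). Adipoq (adiponectin) had signals of 12.5 in the injected and 104 in the contralateral nerve, Fabp4 of 33.6 and 99.8, Retn (resistin) of 22.6 and 111, and Car3 of 2.96 and 26.8. Pparg, the factor that makes fat cells, stood at 8.49 and 26.9. The summed signal of the 23 adipocyte genes on the array was 515 in the injected and 1174 in the contralateral nerve. Lpl and several genes of fatty acid synthesis are also used by fat cells. The part of fat in the falls of the lipid genes was not tested.

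Other large falls were of enzymes and secreted proteins. Rnase1, a secreted ribonuclease of blood vessels, was 12.8-fold lower, with signals of 3.51 and 44.7. Its relatives Rnase1l2 and Rnase2 also fell, and as close paralogues their separate values are uncertain. Ces1d, a carboxylesterase of fat and liver, was 12.7-fold lower at 3.6 and 45.8. PCOLCE2, an enhancer of procollagen processing, was at 3.64 and 35.3, and Pla2g2a, a secreted phospholipase, at 75.5 and 414. Akr1c3 and Mmp27 closed the 15 largest falls at 4.97-fold and 4.96-fold.

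Blood and muscle transcripts differed between the sides. Of 8 measured red blood cell genes all rose, with a median log2 ratio of 2.04 and a summed signal of 12901 in the injected and 3047 in the contralateral nerve. Hba-a1 stood at 5526 and 1275, and Alas2, the heme synthesis enzyme of red cells, at 18.2 and 3.5. Haemoglobin genes are near-identical copies, so their separate values are uncertain. Of 29 skeletal muscle genes 26 were higher, 16 rose and 1 fell (median log2 ratio 1.06), and the summed signal of the list was 283 and 96.2. Myl11, the regulatory light chain of fast muscle, stood at 62.8 and 3.53, and Myh1, a fast myosin heavy chain, at 8.23 and 0.542. Myh7 of slow muscle was the gene that fell, and Mb, Acta1 and Pygm had log2 ratios of 0.10, 0.33 and -0.14. Cox6a2 and Cox8b, the respiratory subunits of muscle, were the ones of 20 mitochondrial genes that rose. The part of blood and of muscle in the other rises was not tested. Hmox1, which breaks down heme, and Hp, which binds haemoglobin, rose while 17 other genes of heme and iron handling did not pass 2-fold.

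Lists of other structural cells had small medians, though single members came close to 2-fold or passed it. The median log2 ratio was 0.12 for endothelial and barrier genes, a list not of endothelial cells alone. It was 0.14 for smooth muscle and pericyte genes and 0.23 for fibroblast genes. Of 21 endothelial and barrier genes none passed 2-fold, with log2 ratios of 0.97 for Pecam1, 0.09 for Cdh5, -0.26 for Cldn5 and -0.96 for Cldn19. None of 12 genes of smooth muscle and pericytes passed it either. Of 14 genes of the fibroblast list Ly6c and Sfrp4 rose, and Dcn and Pdgfra stood at -0.13 and -0.01. Which cells account for the rises was not tested. Of 17 genes of eicosanoid synthesis 2 rose and 2 fell, and the rises were of Pla2g7 and the prostaglandin receptor Ptger4. Of 15 immediate early and heat shock genes Junb rose from 21.4 to 46.7 and Fosl1 was at least 2.82-fold higher.

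The same contrast was made in the nerve of athymic nude rats, which lack mature T cells, and in the DRG of the wild-type rats. The nude rats were also pools of 3 females of 8 weeks, but were taken at day 7 by the labels, so rat type, day and strain cannot be told apart. Their injected array was dim, with a median raw signal of 23.5 against 83.9 on its contralateral array. Of 9445 genes measured there, 708 rose (7.5%) and 1278 fell (13.5%), and all genes had a median log2 ratio of -0.38. Of the 478 genes that rose in wild-type nerve, 397 were measured in nude nerve, 189 of them rose there (47.6%) and 4 fell. Of the 417 that fell, 369 were measured, 269 fell (72.9%) and 1 rose. In the wild-type DRG, where 0.49% of all genes rose and 0.517% fell, 6 of the 420 measured genes that rose in nerve also rose and 8 fell. Of the 374 that fell in nerve, 1 also fell and 7 rose. Side by side, the list medians in wild-type and nude nerve were 1.39 and 1.07 for cell division, -1.16 and -1.43 for cholesterol synthesis, -1.57 and -2.07 for adipocytes, and 2.04 and 2.98 for red blood cells. They were 0.93 and -0.21 for interferon-induced genes, 1.08 and 0.36 for macrophage markers, 0.41 and -0.27 for MHC class I, 0.73 and -0.32 for leukocyte adhesion, and 1.06 and -0.68 for skeletal muscle. Neither the list medians nor the ratios of single genes were corrected for the median of all measured genes. That median was -0.05 in wild-type and -0.38 in nude nerve, so sign and size in nude nerve carry this shift. The T cell markers stood at 0.33 over 17 measured genes in wild-type and 0.56 over 10 in nude nerve, so these medians rest on different genes. Among single genes, Myl11 of muscle stood at 4.15 in wild-type and -1.30 in nude nerve, Isg15 at 3.34 and -0.21, Cxcl10 at 3.00 and 0.07, and Cd55 at -0.90 and 2.12. Ptx3, Tnn and Lbp were past 2-fold in both, at 4.58 and 1.72, 3.77 and 3.86, and 3.46 and 3.73. None of these differences was tested.

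**Figure D4:**
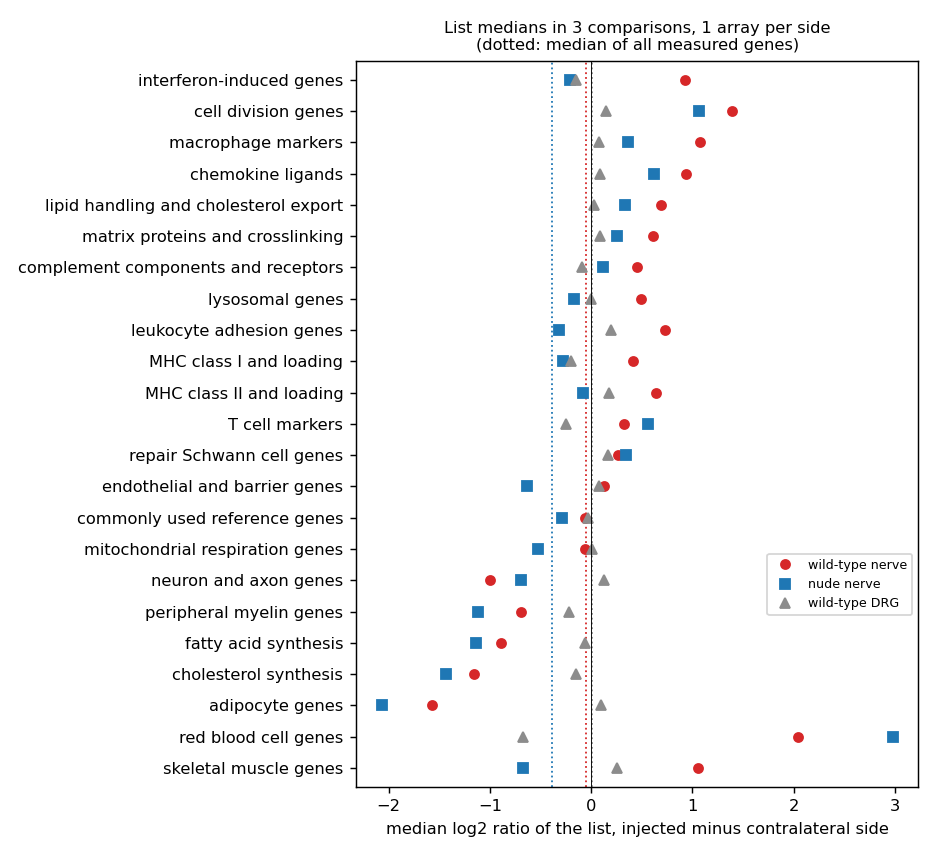
Median log2 ratio (injected minus contralateral side, x axis) of 23 gene lists in wild-type nerve (red circles), nude nerve (blue squares) and wild-type DRG (grey triangles), 1 array per side. Dotted lines are the medians of all measured genes in the wild-type nerve (-0.05), the nude nerve (-0.38) and the DRG; the interferon-induced list stands at 0.93 in wild-type and -0.21 in nude nerve.

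The list medians kept their sign in 36 of 43 lists under 9 other ways of processing the same arrays. The 7 that changed sign had medians near 0 or few measured genes. They were B and plasma cell markers, neutrophil genes, the interleukin-6 family, other cytokines, the plasminogen system, mitochondrial genes and reference genes. Normexp correction, which adds an offset of 50 to every signal, moved several medians toward 0. They became 0.55 for interferon-induced genes, 0.62 for skeletal muscle, 0.37 for matrix proteins, 0.14 for T cell markers, -0.41 for neuron and axon genes, -0.44 for peripheral myelin and -0.57 for fatty acid synthesis.

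**Figure D5:**
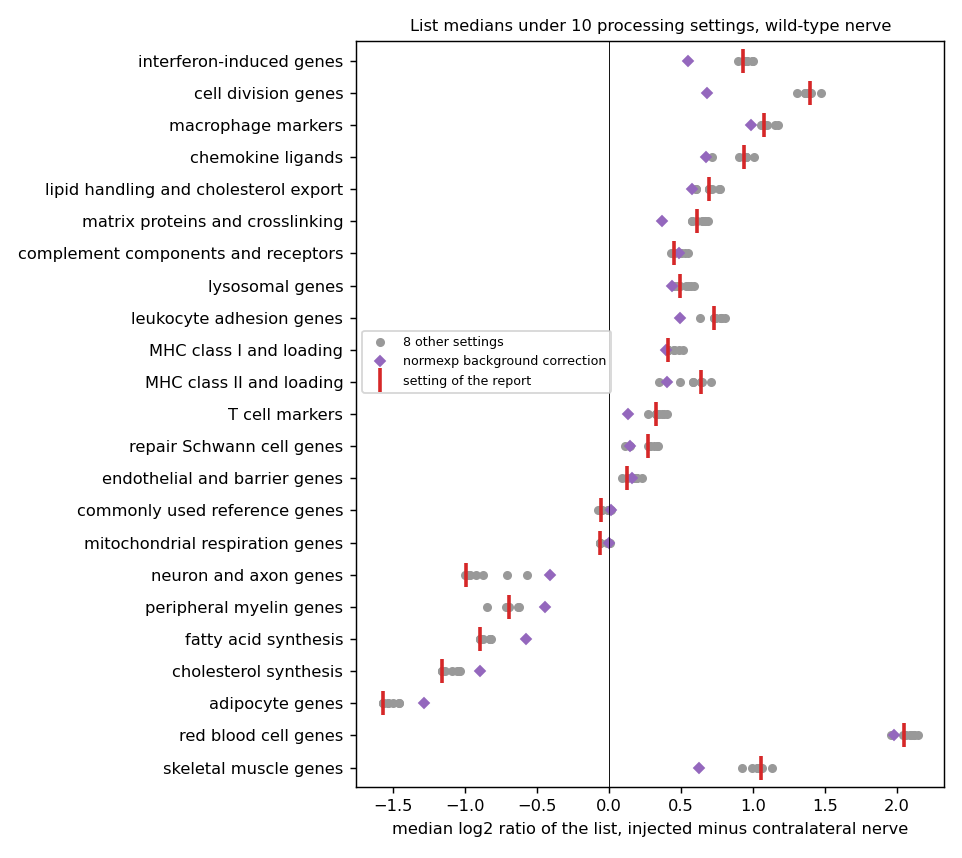
Median log2 ratio (x axis) of 23 gene lists in wild-type nerve under the setting of the report (red bars), 8 other settings (grey) and normexp background correction (purple diamonds). Normexp correction moved medians toward 0, as for cell division genes from 1.39 to 0.68.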

How the data were processed

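Total RNA (50 ng per array) was labelled with Cy3 and hybridised to single-colour Agilent rat arrays. The intensity values are spot signals that the authors extracted with Feature Extraction (version 10.5 per the labels) after subtraction of local background, with no step between arrays. The deposited flags of 0 or 1 (other values) come from the same software. The log2 values deposited by the authors are a normalized table and were used as an alternative only.

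Non-control spots without an outlier flag were averaged on the log2 scale per probe, and each array was centred on its median. A probe counted as well above background when all its spots did. Signals below the dimmest signal well above background on an array were raised to it before a ratio was taken. Names came from RefSeq accessions (GRCr8 table), which named 18006 of 30367 probes, and the brightest probe of a gene was used. Of 961 genes in 43 lists 696 were measured, 155 were not and 110 had no named probe. Promoters are the first listed start of each gene.

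The arrays, the gene lists and the rules were chosen with earlier results of these data known. Genes were named by a rule, the 15 largest rises and falls on both arrays, the 10 largest bounds in each direction, and list members; not all are printed, and some genes are not reported here. Wild-type pairs had 1 array per side, so the authors' t-test was not run. Alternatives changed the scaling (75th percentile, cyclic loess, quantile normalization, or the authors' table), the background (normexp, offset 50), the filter (signal required on both sides, or neither filter nor floor), the probes (average of a gene's probes, or outlier spots retained) and the threshold (3-fold). Normexp used the median spot signal, in place of the mean signal. The scripts were tested on simulated data. The number of arrays limits the precision. R 4.3.3 with limma 3.58.1 was used for normexp and loess, and Python 3.11.15 (pandas 2.3.3, numpy 2.4.6, matplotlib 3.10.9) for the rest.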

Additional observations from a re-analysis of the deposited data

Results flagged for a closer look

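Some genes passed 2-fold in opposite directions under the same contrast in another tissue or rat type. Only genes named in the text were searched for this. Over all genes, 4 that rose in wild-type nerve fell in nude nerve, and 1 that fell rose there. With 1 array per side the difference was not tested. Myl11, of fast muscle, had a log2 ratio of 4.15 in wild-type nerve and -1.30 in nude nerve. Between wild-type nerve and wild-type DRG, 3 interferon-induced genes were higher in the injected nerve and lower in the DRG of the injected side. Their log2 ratios were 2.50 and -1.11 for Oas1a, 2.30 and -1.07 for Usp18, and 1.66 and -1.18 for Irf7. The opposite order was seen for Retn, at -2.30 in nerve and 1.12 in DRG, and for Myh7, a bound in nerve, at -1.34 and 2.55.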

How the results depend on the processing

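Each value rests on 1 array of pooled RNA per side, so the spread between rats is unknown and no p-value can be had. Leaving out a replicate was not possible. No paired analysis was possible because each side had 1 array. The counts of 478 rises and 417 falls became 201 and 107 after normexp background correction, 831 and 741 with no filter and no floor, and 184 and 88 at a 3-fold threshold. They were 549 and 345 after scaling to the 75th percentile, and 346 and 330 with signals well above background on both arrays. None of the 478 or 417 genes changed direction under the 8 settings that measured them all, nor did the 346 and 330 that remained when both arrays had to be well above background. Some settings could not have reversed a gene past 2-fold. The filter on both arrays kept the same ratios, and leaving out the floor could not shrink them. Scaling to the 75th percentile shifted all ratios by the same small amount. Of 387 list medians recomputed, 370 moved by less than the SD of the log2 ratio between probes of a gene (root mean square 0.298). After normexp the median was 0.60 for B and plasma cell markers, 0.22 for neutrophil genes, 0.62 for skeletal muscle, -0.41 for neuron and axon genes, 0.55 for interferon-induced genes, 0.20 for macrophage activation genes, -0.57 for fatty acid synthesis and 0.68 for cell division. With signals well above background on both arrays it was 0.077 for cytotoxic genes, -0.30 for neutrophil genes, 0.18 for the interleukin-1 family and -0.051 for the plasminogen system. With no filter and no floor it was 0.16 for cytotoxic genes, -0.14 for B and plasma cell markers, 0.18 for neutrophil genes, -0.57 for neuron and axon genes and 0.28 for the interleukin-1 family. The other settings use fewer or more genes by their construction. Normexp added an offset of 50 to every signal, close to the median raw signals of 57.7 and 53.8. Such an offset draws the ratios of dim genes toward 0 by construction, and its share in these moves was not tested. Of 1832 ratios of genes named in the text, 108 moved by more than that SD, 83 of them after normexp, and none of those past 2-fold changed sign. Genes near background are the least precise.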
